A study of Mus musculus with 188 samples.

Results

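Transcripts of 10 genes were followed through brain slice cultures exposed to the red blood cell toxins hemoglobin and heme and to their scavenger complexes. The genes were chosen by symbol, with earlier results of these data known, and so are not an unselected set. Each was found by its Ensembl identifier in every library. Of the 25655 genes counted in sequencing batch 1 and the 25528 counted in batches 2 and 3, these 10 are described. Of these, 6 are markers of border macrophages (Mrc1, Lyve1, Pf4, F13a1, Cbr2 and Stab1) and 4 belong to the Ms4a family (Ms4a7, Ms4a6b, Ms4a6c and Ms4a6d). All 10 passed the filter on low counts in both sets of libraries.

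Border macrophages line the meninges, the perivascular spaces and the choroid plexus, whereas microglia populate the parenchyma. Both depend on signalling through the receptor Csf1r, and both express many macrophage genes in common. The mannose receptor Mrc1, the scavenger receptor Stab1 and the hyaluronan receptor Lyve1 serve uptake and adhesion at the brain's borders. Pf4 encodes a CXC chemokine best known from platelets, F13a1 the catalytic subunit of coagulation factor XIII, and Cbr2 a carbonyl reductase. The Ms4a genes encode small proteins of the cell membrane and lie in a gene cluster on chromosome 19. Ms4a7 is a widely used border macrophage marker in the mouse brain, and the Ms4a6 genes are expressed by several kinds of macrophage. Hemopexin (Hpx) binds heme and haptoglobin (Hp) binds hemoglobin (Hb), each with high affinity.

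The cultures (BSC, organotypic coronal brain slices) came from wild-type C57BL/6J mice of both sexes, aged 6 to 8 weeks and perfused with saline before slicing, and exposure began on day 7 of culture. Batch 1 held 10 libraries each of control, heme-albumin at 12.5, 50, 200 and 400 µM, and hemeHpx at 200 µM, all after 24 h. Batches 2 and 3 held control (10 libraries at 24 h and 9 at 48 h), Hb at 200 and 400 µM (10 libraries per dose and time), HbHp at 200 µM (8 at each time), HbHp at 400 µM (4 at 24 h and 5 at 48 h) and Hp alone at 400 µM (12 at 24 h and 11 at 48 h). A slice is an ex vivo tissue without blood flow, and bulk RNA of slices cannot tell fewer cells of a type from less RNA per cell. Of the 188 libraries, 167 were assigned to groups. The other 21 had a treatment tag, title and library name that disagreed, and entered no comparison.

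Total counts ran from 11038484 to 44199060 per library in batch 1, from 32626873 to 54174784 in batch 2 and from 15587938 to 38839614 in batch 3. The library names of batches 2 and 3 also start with E1 or E2, a prefix that the labels do not explain, and libraries of the 2 prefixes stood apart. Between E2 and E1, 68.0% of the 16473 genes tested differed, and 8 of the 10 members were higher in E2 (36.1% of all genes were higher). The Ms4a members were higher by 0.92 to 1.05 on the log2 scale, Stab1 by 1.0 and Cbr2 by 1.17, whereas Lyve1 (-0.10) and Pf4 (0.14) did not pass the test. All HbHp libraries belong to batch 3 and E2, while only 3 of 10 controls at 24 h and 2 of 9 at 48 h are from E2. Fold changes for Hb, HbHp and Hp therefore come from a fit with terms for batch and prefix, and levels are given by prefix where the results turn on it.

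Levels of the members in untreated slices spanned a wide range. Per kilobase of exon, so that genes can be set beside each other, Pf4 lay highest in the batch 1 controls at 48.1 ± 15.9 CPM per kb (SD, n = 10; CPM is the read count scaled to the size of the library), followed by Ms4a6d at 39.7 ± 16.9 and Stab1 at 27.4 ± 11.6. Ms4a6c followed at 8.55 ± 4.07, then Mrc1 at 5.73 ± 2.19, Ms4a7 at 3.62 ± 1.46, Ms4a6b at 2.89 ± 1.45 and F13a1 at 2.02 ± 0.769. Cbr2 (0.925 ± 0.402) and Lyve1 (0.212 ± 0.106) were lowest. Neighbours in this order overlapped in their SDs except between Stab1 and Ms4a6c and between Cbr2 and Lyve1, so that the members fall into a high group of 3 genes, a middle group and the low Lyve1. The border markers Mrc1, Stab1 and Pf4 were thus present in every group of slices, and Lyve1 was detected at group means of 0.576 to 0.841 CPM in batch 1.

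Across libraries the Ms4a members moved as a block. After removal of group means, pairs of Ms4a members had a median Pearson r of 0.92 over the 60 libraries of batch 1 and 0.89 over the assigned libraries of batches 2 and 3. Pairs of border macrophage members reached a median of only 0.45 and 0.36. Mrc1 and Stab1 went with the Ms4a genes (median r 0.77 and 0.78), more closely than Lyve1, Pf4, F13a1 and Cbr2 did (0.51 and 0.40). The points share library preparation and depth, and these values are descriptive. Among 15321 candidate genes, those most like the mean of the Ms4a members in both sets were Lcp1 (r = 0.97 and 0.96), Tmem106a, Sla, Lgmn, Arhgdib, Igf1, Vav1 and Gusb, several of them general leukocyte genes. Those most like the mean of the border macrophage members were Cxcl16, Ctla2b, Cfp, Lcp1, Adgre1, Tmem106a, Mylip and Tlr8, with r between 0.76 and 0.82.

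Heme-albumin lowered Mrc1, Stab1 and all 4 Ms4a members at 200 µM. In all, 6 of the 10 members fell and none rose, in a comparison in which 13.6% of the 15554 genes tested were called (6.60% lowered). The median over the 6 border macrophage members was -0.47 and that over the 4 Ms4a members -1.02 on the log2 scale, against -0.01 over all genes. At 400 µM, 5 of 10 fell (29% of genes called, 14.3% lowered), namely the same genes without Ms4a7. At 12.5 µM (0.0450% called) and at 50 µM (0.463% called) edgeR called 0 members and DESeq2 0, with 0 and 2 members at an unadjusted p under 0.05.

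Ms4a6b and Ms4a6c fell most. Ms4a6b was at 7.27 to 25.6 CPM in the controls (median 9.42) and at 2.66 to 8.14 CPM (median 4.62) with 200 µM heme-albumin. The library at 8.14 CPM was the only one of the 10 within the control range. At 400 µM all 10 libraries, at 2.35 to 7.07 CPM, lay below the lowest control at 7.27 CPM, by a narrow margin. The mean fell from 13 ± 6.49 to 4.63 ± 1.56 CPM at 200 µM, 2.78-fold lower (log2 fold change -1.47 ± 0.25 SE, edgeR adjusted p = 2.73e-05), and to 4.36 ± 1.86 CPM at 400 µM, 2.94-fold lower (adjusted p = 2.18e-06). Ms4a6c ran from 8.82 to 31.7 CPM in the controls (median 14.4), from 4.74 to 10.1 CPM (median 6.48) at 200 µM and from 4.38 to 10.5 CPM (median 7.10) at 400 µM. It was 2.61-fold lower at 200 µM (-1.38 ± 0.21, adjusted p = 4.1e-06) and 2.57-fold lower at 400 µM (adjusted p = 1.09e-06), with a small overlap between the ranges. The lower doses gave Ms4a6b means of 9.52 ± 2.98 CPM at 12.5 µM and 8.66 ± 3.90 CPM at 50 µM, neither past the test (-0.58 ± 0.24, adjusted p = 0.359 at 50 µM). Those of Ms4a6c were 13.5 ± 3.27 and 13.3 ± 4.61 CPM.

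Ms4a6d and Ms4a7 fell less and their groups overlapped. Ms4a6d ran from 35.2 to 114 CPM in the controls (median 59.6) and from 27.5 to 63.2 CPM (median 44) at 200 µM, a log2 fold change of -0.66 ± 0.21 (adjusted p = 0.0272). At 400 µM it changed by -0.60 (adjusted p = 0.0245). Ms4a7 ran from 9.55 to 28.6 CPM in the controls (median 13.9) and from 6.20 to 16.6 CPM (median 10.5) at 200 µM (-0.60 ± 0.19, adjusted p = 0.0291). At 400 µM its value was -0.41 (95% interval -0.79 to -0.03, adjusted p = 0.104), which did not pass the test.

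The scavenger receptors Mrc1 and Stab1 fell by similar amounts at both high doses. Mrc1 ran from 18.5 to 60.6 CPM in the controls (median 34.3), from 12.8 to 31 CPM (median 20.3) at 200 µM and from 14.8 to 25.7 CPM (median 19.5) at 400 µM. This was 1.78-fold lower at 200 µM (-0.83 ± 0.17, adjusted p = 0.000374) and -0.87 on the log2 scale at 400 µM (adjusted p = 5.06e-05). Stab1 was at 282 ± 119.5 CPM in the controls (138 to 472) and at 150.5 ± 49.7 CPM (79.3 to 247) at 200 µM, 1.87-fold lower (-0.90 ± 0.24, adjusted p = 0.00694). At 400 µM it was at 146 ± 65.5 CPM (67.3 to 258; adjusted p = 0.00184). At 12.5 and 50 µM the means were 30.5 ± 7.05 and 30.1 ± 9.31 CPM for Mrc1 and 241 ± 78.4 and 249.6 ± 101 CPM for Stab1, neither past the test. The middle of the treated libraries at the high doses lay near or below the lowest controls for both genes, but the ranges overlapped.

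Pf4, F13a1, Cbr2 and Lyve1 did not pass the test at any dose of heme-albumin. Pf4 was at 34.7 ± 11.4 CPM in the controls (13.3 to 51.6), 34.2 ± 11.7 CPM at 200 µM (22.6 to 58) and 37.0 ± 7.73 CPM at 400 µM (22.2 to 46.4). Its log2 fold change at 200 µM was -0.02, with a 95% interval from -0.37 to 0.33. F13a1 (13.6 ± 5.18 CPM in the controls, 10.9 ± 2.59 at 200 µM and 9.76 ± 3.13 at 400 µM) and Cbr2 (1.23 ± 0.533, 0.806 ± 0.211 and 0.648 ± 0.230 CPM) came near the threshold at 400 µM, with -0.47 (adjusted p = 0.0517) and -0.91 (adjusted p = 0.0521). Lyve1 was at 0.619 ± 0.310 CPM in the controls and 0.576 ± 0.302 CPM at 200 µM, with an interval from -0.62 to 0.53, so that a change below that size was not detectable at this depth.

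**Figure D1:**
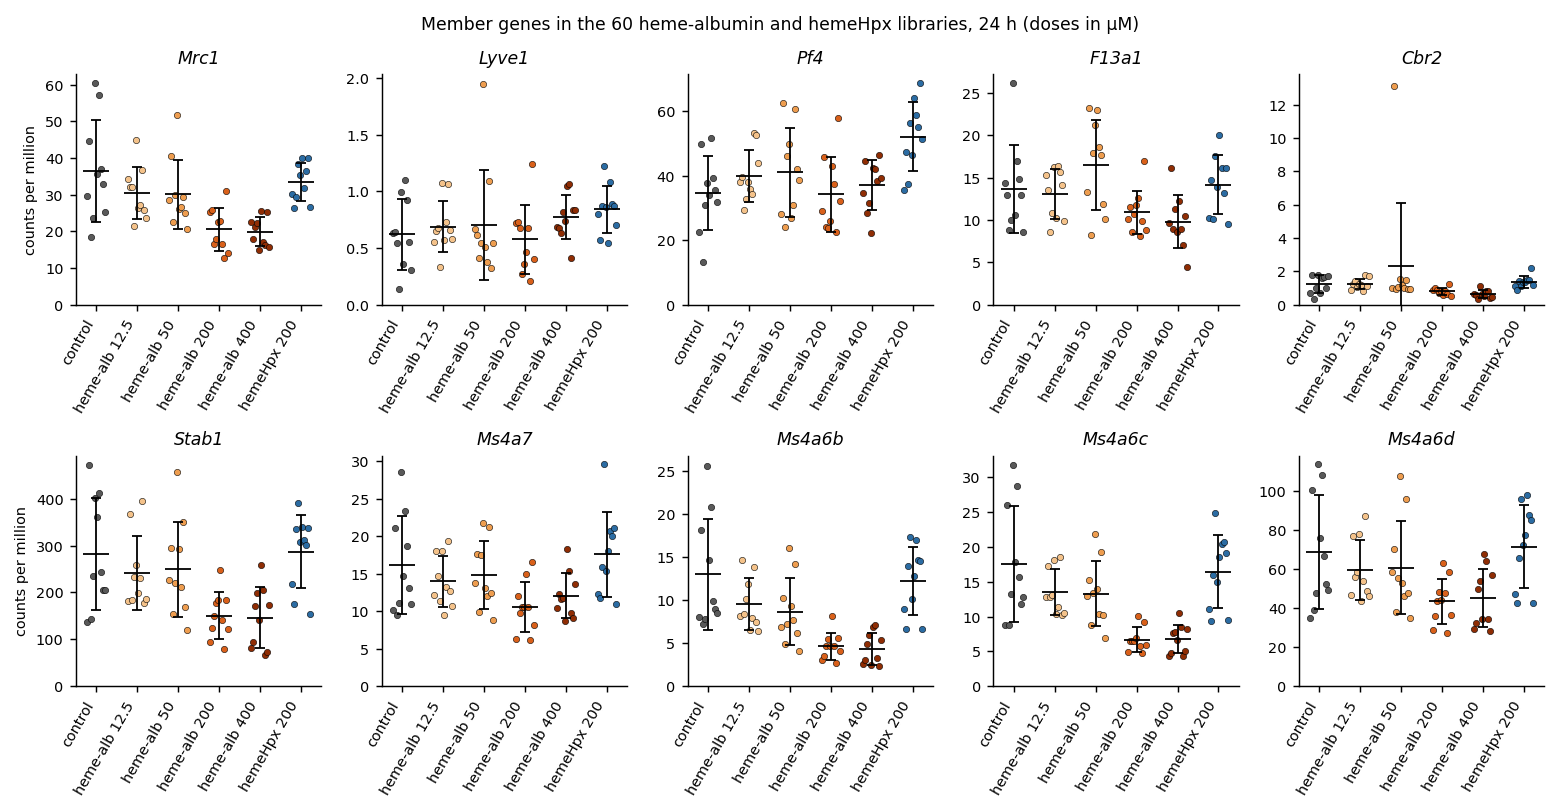
Level of each of the 10 members in CPM (vertical axes, 1 panel per gene) in the 60 libraries of batch 1 by group, with 1 point per library, a bar at the mean and whiskers of 1 SD. Ms4a6b falls from a mean of 13 CPM in the controls to 4.36 CPM at 400 µM heme-albumin and lies at 12.2 CPM with hemeHpx, whereas Pf4 is highest with hemeHpx at 52.1 CPM.

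Other macrophage and microglia genes fell in the same libraries. Of 16 genes of macrophages in general, 8 fell at 200 µM (median -0.76), among them Csf1r (-0.83, adjusted p = 0.0122) and Fcgr1 (-1.03). Their summed level went from 2186 ± 963 CPM in the controls (1021 to 3986) to 1366 ± 415 CPM (727.5 to 2007), with none of the 16 left out by the filter. Of 14 homeostatic microglia genes 12 were tested and 8 fell (median -0.72; summed level 1721 ± 425 CPM in the controls and 1279 ± 201 CPM), with Gpr34 at -2.10, Cx3cr1 at -1.36, Fcrls at -1.23 and Tmem119 at -1.08. Of 20 further border macrophage markers 14 were tested, of which 6 fell (median -0.53), including the haptoglobin-hemoglobin receptor Cd163 at -0.91, Cd38 at -0.69, the transcription factor Maf at -0.67 and the endocytic adaptor Dab2 at -0.65. The lectin Clec4n went the other way and rose by 1.75 ± 0.20 (adjusted p = 3.29e-09). Of 14 other Ms4a family genes only 3 were expressed enough to test, and 2 fell (Ms4a4a by 0.99 and Ms4a14 by 0.62 on the log2 scale). The part of such other macrophage RNA in the members' values was not tested.

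Outside the macrophage lists, 4 of 8 astrocyte genes, 4 of 15 activated microglia genes, 3 of 10 pericyte and smooth muscle genes, 1 of 12 fibroblast genes and 1 of 12 endothelial genes fell at 200 µM. Neurons and oligodendrocytes had 1 raised gene each. The lists of monocytes and neutrophils, antigen presentation and dendritic cells, platelets and proliferation had 0 genes called. The choroid plexus list also had 0 of 11 called, with a median of -1.33 and a summed level that ran from 16.6 to 3511 CPM among the controls alone. Choroid plexus carries border macrophages, and its part in the members' spread was not tested. Among 12 genes by which macrophages handle heme, 7 rose, with the iron exporter Slc40a1 at 2.03 and heme oxygenase Hmox1 at 1.32, and 1 fell (Hpgds, -1.08). Of 14 genes of colony-stimulating factor signalling and alternative activation, 7 were tested and 1 rose.

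Ms4a6b and Ms4a6c were low also when set beside other macrophage genes of the same library. For this measure, chosen after the values had been seen, the mean log2 CPM of the 16 general macrophage genes was subtracted from that of each member. Ms4a6b then lay 0.76 ± 0.095 (SE) lower at 200 µM than in controls and Ms4a6c 0.65 ± 0.074 lower, with no overlap between the groups. Both had a permutation p of 2e-05, the smallest that 100000 resamples can give (two-sided, adjusted over 40 tests 0.000114). At 400 µM the differences were -1.05 and -0.81 with the same adjusted p, again without overlap. Stab1 lay lower by 0.23 (adjusted p = 0.0031) and by 0.49 (0.000114). Ms4a6d (0.04, adjusted p = 0.634, and -0.09, 0.342) and Ms4a7 (0.05, 0.714, and 0.12, 0.634) did not differ beyond the spread between libraries, nor did Mrc1 at 200 µM (-0.16, 0.608). Pf4 lay higher by 0.63 at 200 µM (adjusted p = 0.0121) and, short of the threshold, by 0.62 at 400 µM (0.0614). Lyve1 lay higher by 0.87 at 400 µM (adjusted p = 0.0217).

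With homeostatic microglia genes as the reference in place of general macrophage genes, Ms4a6b (-0.59 at 200 µM, adjusted p = 0.00216, and -0.76 at 400 µM, 0.0006) and Ms4a6c (-0.48, 0.0014, and -0.51, 0.0006) still lay lower in the permutation test. Stab1 no longer did (-0.06, adjusted p = 0.832, and -0.20, 0.164). Pf4 lay higher by 0.79 (adjusted p = 0.00126) and 0.92 (0.00178), and Lyve1 by 1.17 at 400 µM (0.00064). F13a1 at 200 µM (0.52, adjusted p = 0.0374) and Ms4a7 at 400 µM (0.41, 0.04) also lay higher with this reference. In its own level none of these genes rose past the test with heme-albumin. Over all such comparisons, those within E2 given further on included, 19 values passed with either reference and 9 of them with both, so that a call on this scale often depended on the reference.

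**Figure D2:**
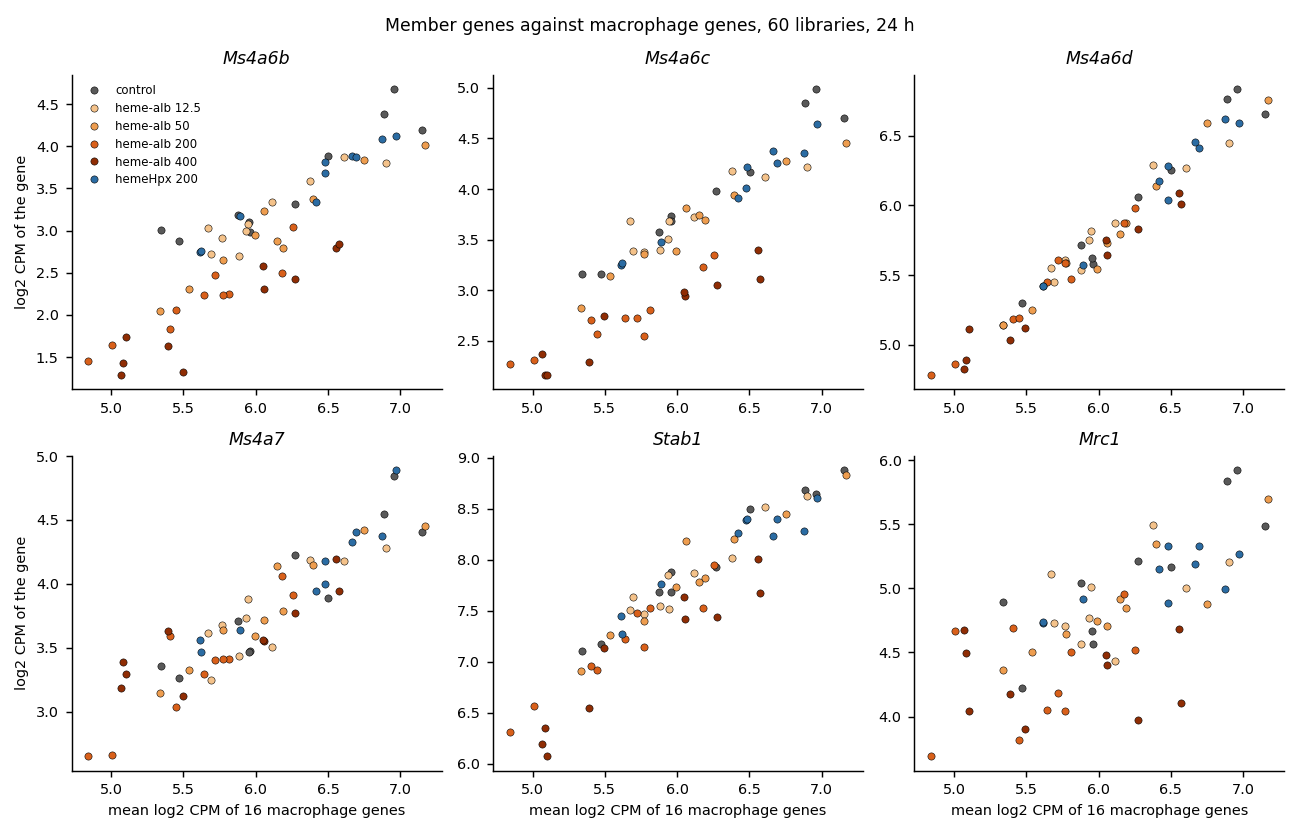
Log2 CPM of 6 members (vertical axes, 1 panel per gene) against the mean log2 CPM of 16 general macrophage genes in the same library (horizontal axes), with 1 point for each of the 60 libraries of batch 1, coloured by group. At a like level of the macrophage genes, Ms4a6b and Ms4a6c lie lower with 200 and 400 µM heme-albumin than in controls, by 0.76 and 1.05 for Ms4a6b, while Ms4a6d lies along 1 line in all groups.

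The Ms4a members also parted from each other, and the mean of Ms4a6b beside Ms4a6d stepped down over dose. As a measure chosen after the values had been seen, the log2 CPM of Ms4a6d was subtracted from that of Ms4a6b in the same library. It was -2.43 ± 0.19 (SD) in the controls, -2.65 at 12.5 µM, -2.83 at 50 µM, -3.23 ± 0.13 at 200 µM and -3.40 ± 0.18 at 400 µM. Against control the differences were -0.22 ± 0.074 (SE; permutation test, two-sided, adjusted over 24 tests p = 0.0181), -0.40 ± 0.086 (0.00144), -0.80 ± 0.073 (8e-05) and -0.97 ± 0.084 (8e-05). The last p is the smallest these resamples can give, and at the 2 highest doses no library overlapped with a control. Ms4a6b was thus already low beside Ms4a6d at the doses at which its own level did not pass the test. Ms4a6c less Ms4a6d differed by -0.14 at 12.5 µM (adjusted p = 0.0343), -0.18 at 50 µM (0.0133), -0.68 ± 0.065 at 200 µM and -0.72 ± 0.067 at 400 µM (8e-05 each, no overlap). Its value at 12.5 µM was of the size of that with hemeHpx (-0.13). All doses were set against the same controls, so an offset of the controls would enter each difference. Ms4a7 less Ms4a6d did not pass the test at any dose (0.02 at 200 µM, adjusted p = 0.899, and 0.21 at 400 µM, 0.107), and Ms4a6b less Ms4a6c passed at 50 µM only (-0.22, adjusted p = 0.0378, against -0.11, 0.321, at 200 µM and -0.25, 0.0985, at 400 µM).

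**Figure D3:**
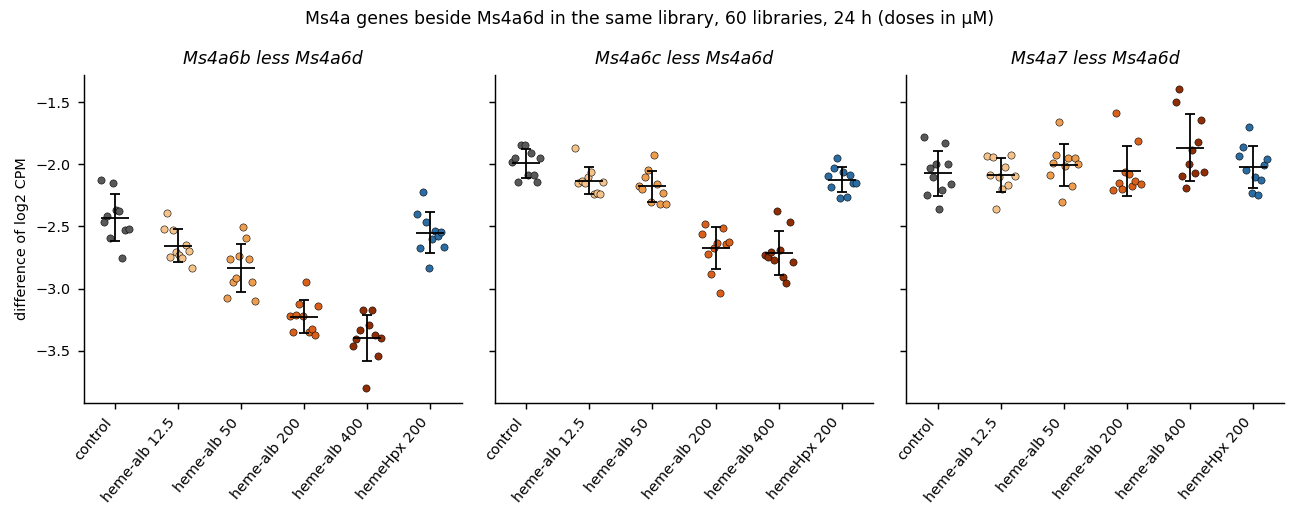
Difference of log2 CPM between an Ms4a member and Ms4a6d in the same library (vertical axis) for the 60 libraries of batch 1 by group, with bars at the mean and whiskers of 1 SD. Ms4a6b less Ms4a6d steps down from -2.43 in the controls to -3.40 at 400 µM heme-albumin and is -2.55 with hemeHpx, whereas Ms4a7 less Ms4a6d shows no such steps.

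Ms4a6b and Ms4a6c, which parted from Ms4a6d together, lie near each other and also near Ms4a6d on chromosome 19. In GRCm38 with the GENCODE M21 annotation, Ms4a6c lies at chr19:11469366-11482192 (plus strand), Ms4a6b at chr19:11516512-11531256 (plus), Ms4a6d at chr19:11586604-11604849 (minus) and Ms4a7 at chr19:11321039-11336146 (minus). The counts were made on GRCm39, whose positions were not converted. RefSeq promoters of GRCm38.p6, 250 bases before to 50 after the start site, were available for 8 of the 10 members. Lyve1 and Ms4a6d had none, so whether Ms4a6d holds the sequence described next could not be seen. Those of Ms4a6b (chr19:11518309-11518608) and Ms4a6c (chr19:11469118-11469417) are shown because they share 86 of 300 bases (28.7%) in identical runs of at least 12 bases, which are in capitals.
Ms4a6b: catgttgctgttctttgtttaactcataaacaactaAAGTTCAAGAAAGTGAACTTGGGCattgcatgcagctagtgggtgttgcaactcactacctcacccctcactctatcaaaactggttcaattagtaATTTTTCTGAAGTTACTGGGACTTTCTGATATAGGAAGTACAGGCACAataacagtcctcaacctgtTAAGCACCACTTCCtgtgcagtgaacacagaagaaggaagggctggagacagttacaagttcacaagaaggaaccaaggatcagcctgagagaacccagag
Ms4a6c: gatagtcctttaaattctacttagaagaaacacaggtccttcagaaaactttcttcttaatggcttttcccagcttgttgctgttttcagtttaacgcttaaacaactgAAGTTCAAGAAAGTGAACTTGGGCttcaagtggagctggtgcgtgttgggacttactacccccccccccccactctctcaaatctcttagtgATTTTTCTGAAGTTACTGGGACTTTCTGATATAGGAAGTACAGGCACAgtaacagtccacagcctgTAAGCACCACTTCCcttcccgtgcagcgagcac
The longest shared run has 48 bases, starts 118 bases before the start site of Ms4a6b and 49 before that of Ms4a6c, and occurs in 2 promoters of the 32851 in the table. Reads can also be shared: 3.57% of the 50-base windows of Ms4a6b exons, 10.5% of those of Ms4a6c and 2.54% of those of Ms4a6d occur elsewhere in annotated transcripts, and 117 windows are common to Ms4a6b and Ms4a6c. The split of reads between these genes is uncertain to that extent, and the authors' handling of such reads was not given in the sources used here. Ms4a6b and Ms4a6c also overlap a gene on the opposite strand (Gm19261 and BE692007), from which reads cannot be told apart unless strand was used in counting.

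The promoters of these 8 members were searched on both strands for 4 motifs. F13a1 and Ms4a7 have 2 promoters each and counted if either held the motif, whereas the shares of all are per promoter. GAGGAA, the core letters of a PU.1 site, occurred in 6 of the 8 and in 28.3% of all 32851. The 6 were Mrc1, Stab1 and Ms4a7, which fell at 200 µM heme-albumin, and Pf4, F13a1 and Cbr2, which did not pass the test. TGANTCA (AP-1) occurred in 1 (7.81% of all), TGCTGA (core letters of a MAF site) in 2 (19.5%) and CACGTG (an E-box) in 0 (7.15%). Ms4a6b and Ms4a6c held none of the 4 in these windows. Promoters of Mrc1 (chr2:14229164-14229463, plus strand) and Stab1 (chr14:31168592-31168891, minus), which fell with heme-albumin, and of Pf4 (chr5:90772185-90772484, plus), which did not, all hold GAGGAA, shown in capitals on either strand.
Mrc1: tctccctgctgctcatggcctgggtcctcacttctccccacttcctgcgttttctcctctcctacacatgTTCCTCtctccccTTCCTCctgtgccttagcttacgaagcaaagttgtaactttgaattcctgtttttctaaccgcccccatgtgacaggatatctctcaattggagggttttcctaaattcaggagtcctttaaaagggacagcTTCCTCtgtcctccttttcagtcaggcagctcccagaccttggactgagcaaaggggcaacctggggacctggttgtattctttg
Stab1: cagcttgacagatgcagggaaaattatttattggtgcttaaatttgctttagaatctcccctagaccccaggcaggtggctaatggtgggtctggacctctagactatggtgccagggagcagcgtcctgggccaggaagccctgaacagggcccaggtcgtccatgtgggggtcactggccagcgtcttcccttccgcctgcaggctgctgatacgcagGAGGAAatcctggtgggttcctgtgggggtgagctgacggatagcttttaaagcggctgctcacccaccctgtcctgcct
Pf4: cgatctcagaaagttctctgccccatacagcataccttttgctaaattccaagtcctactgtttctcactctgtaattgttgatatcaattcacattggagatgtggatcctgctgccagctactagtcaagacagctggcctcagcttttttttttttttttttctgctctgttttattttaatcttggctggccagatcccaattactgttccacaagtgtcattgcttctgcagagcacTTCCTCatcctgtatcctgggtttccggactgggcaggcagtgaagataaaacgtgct
Its presence therefore did not separate the genes that fell from Pf4, and the match is a description of letters.

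With heme bound to hemopexin, Pf4 rose and no member fell past the test. In hemeHpx against control 1 of 10 members was called (8.20% of genes called, 3.77% raised). Pf4 rose from 34.7 ± 11.4 to 52.1 ± 10.7 CPM (35.7 to 68.8, median 53.4), a log2 fold change of 0.59 ± 0.18 (1.5-fold, adjusted p = 0.0404), with overlapping ranges. Ms4a6b was at 12.2 ± 3.95 CPM (6.64 to 17.3), Ms4a6c at 16.4 ± 5.21 CPM (9.39 to 24.8), Mrc1 at 33.5 ± 5.27 CPM (26.4 to 40.1) and Stab1 at 287 ± 77.9 CPM (154 to 389.9). Their 95% intervals against control were -0.55 to 0.39, -0.49 to 0.31, -0.45 to 0.20 and -0.44 to 0.49 on the log2 scale. Each lower bound lay above the value that the same gene had with 200 µM heme-albumin. Ms4a6c less Ms4a6d was lower by 0.13 ± 0.048 than in controls (permutation test, adjusted p = 0.0343), a small difference, and Ms4a6b less Ms4a6d by 0.12 ± 0.080 (0.219).

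Set directly against 200 µM heme-albumin at the same dose and time, hemeHpx slices had higher levels of 7 of 10 members (25.9% of genes called, 13% raised). Ms4a6b was 2.63-fold higher (adjusted p = 5.98e-05), Ms4a6c 2.45-fold (1.46e-05), Stab1 1.91-fold (0.00423), Mrc1 1.63-fold (0.00201) and Pf4 1.52-fold (0.0109). Ms4a7 (0.73, adjusted p = 0.00511) and Ms4a6d (0.72, 0.011) were also higher. Lyve1 (0.56, adjusted p = 0.105), F13a1 (0.38, 0.112) and Cbr2 (0.77, 0.0912) did not pass. General macrophage genes were higher for 15 of 16, homeostatic microglia genes for 8 of 12 tested, and further border markers for 9 of 14 with 1 lower. Beside the general macrophage genes Ms4a6b still lay 0.61 higher and Ms4a6c 0.49 higher (permutation test, adjusted p = 0.000114 each, no overlap), and beside Ms4a6d 0.68 ± 0.067 and 0.55 ± 0.062 higher (8e-05, no overlap).

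The rise of Pf4 with hemeHpx went with that of Ppbp, another CXC chemokine of platelets. Ppbp rose from 0.361 ± 0.232 to 1.27 ± 0.490 CPM (log2 fold change 1.87 ± 0.38, adjusted p = 0.00673). The other 3 platelet and megakaryocyte markers tested did not pass the test against control, and the summed level of the platelet list was 24.3 ± 4.20 CPM in the controls (18.1 to 28.8) and 31.8 ± 2.69 CPM with hemeHpx (26.9 to 35.9). Most of that sum was Gp1bb (20.5 ± 3.42 CPM with hemeHpx, 16.1 ± 3.46 in the controls) and Itga2b (8.90 ± 2.61 and 7.19 ± 2.89 CPM). The platelet glycoprotein genes Gp9, Gp1ba and Gp6 had means of at most 0.0292 CPM with hemeHpx, and Gp6 was at 0 in every control. General macrophage genes had 0 of 16 called in this comparison and homeostatic microglia 0 of 12, against 1 raised among the 14 further border markers. With hemeHpx these platelet markers thus ranged from near 0 to 20.5 CPM (Gp1bb), below Pf4 at 52.1 CPM. The part of platelet RNA in the Pf4 value was not tested.

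In the slices exposed to Hb, HbHp or Hp for 24 h, edgeR called 0 members in every comparison with control and DESeq2 0. These were Hb at 200 µM (0.0971% of genes called) and 400 µM (0.522%), HbHp at 200 µM (1.93%) and 400 µM (5.15%), and Hp at 400 µM (0.704%), with 0, 0, 1, 1 and 0 members at an unadjusted p under 0.05. Against the unbound protein the same held for HbHp and Hb at 200 µM (0.607% called, 3 members at an unadjusted p under 0.05), HbHp and Hb at 400 µM (2.21%, 1 member) and HbHp and Hp at 400 µM (0.619%, 1 member), again with 0 by DESeq2. Hb at 400 µM gave Ms4a6b at 11.7 ± 5.93 CPM (4.45 to 23.6) against 9.44 ± 2.96 CPM in the controls (3.86 to 13.7), with a 95% interval of -0.36 to 0.63 on the log2 scale. Mrc1 was at 35.7 ± 8.26 CPM (24.0 to 49.3) against 34.8 ± 6.90 CPM (22.7 to 45.5; interval -0.27 to 0.28). Lyve1 with HbHp at 400 µM was at 1.94, 2.66, 1.39 and 1.10 CPM in the 4 libraries, and at 0.490 to 1.58 CPM in the controls (median 1.18). Its difference from Hp at 400 µM was 0.88 ± 0.28, which did not pass the adjustment (adjusted p = 0.139).

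**Figure D4:**
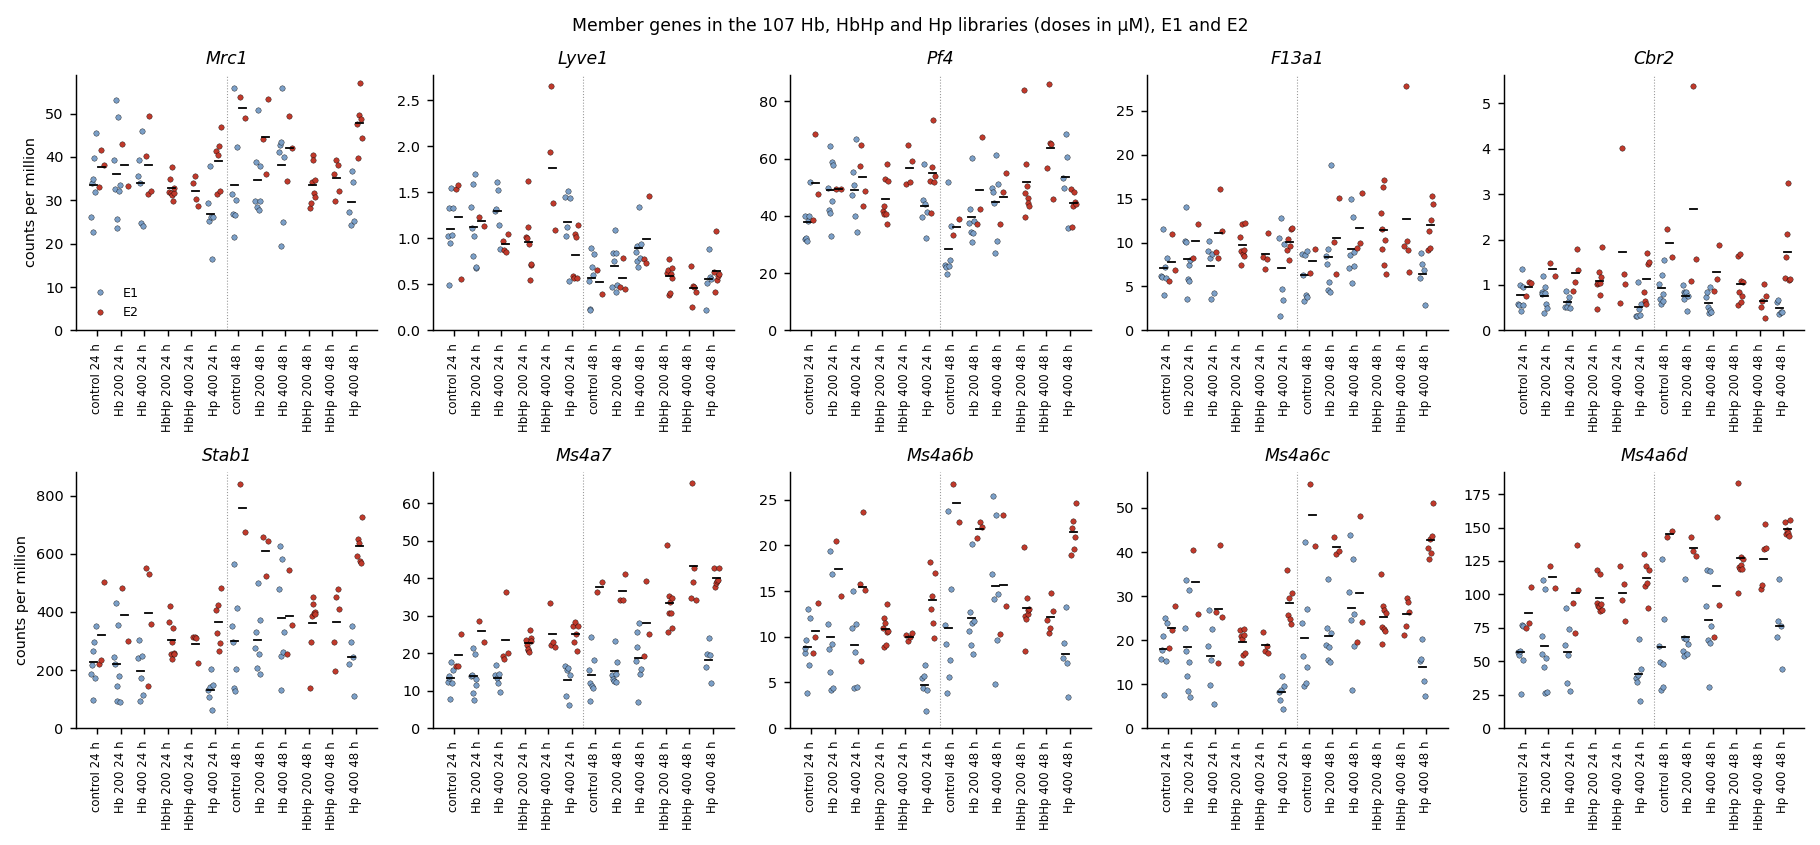
Level of the members in CPM (vertical axes) in the assigned libraries of batches 2 and 3 by group and time, with points coloured by library prefix (E1 or E2) and a line at the mean of each prefix within a group. The E2 controls lie above the E1 controls on average for Stab1 and the Ms4a members, and Pf4 at 48 h is lowest in the controls at 30.2 CPM.

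After 48 h, Pf4 rose with Hb at 400 µM, with HbHp at both doses and with Hp alone. The control libraries lay at 19.8 to 51.7 CPM (median 24.5, mean 30.2 ± 10.7, n = 9), with E1 at 28.6 and E2 at 36.1 CPM. Hb at 400 µM gave 45.3 ± 10.7 CPM (n = 10), HbHp at 200 µM 51.8 ± 14.1 CPM (39.7 to 84.1, n = 8), and Hp at 400 µM 48.5 ± 9.75 CPM (n = 11; E1 53.6 and E2 44.4). The 5 libraries with HbHp at 400 µM were at 56.6, 86.1, 65.3, 65 and 46.1 CPM, of which 4 lay above the highest control. The log2 fold changes were 0.58 ± 0.15 for Hb at 400 µM (adjusted p = 0.0328), 0.54 ± 0.18 for HbHp at 200 µM (0.0401), 0.84 ± 0.20 for HbHp at 400 µM (0.00194) and 0.52 ± 0.17 for Hp at 400 µM (0.0325). Pf4 was the only member that rose, and it was 1 of 10 in each, in comparisons with 0.601%, 11.9%, 11.9% and 10.8% of genes called (0.486%, 7.04%, 7.39% and 4.88% raised). With Hb at 200 µM (0.310% called) it was at 42.5 CPM (0.48, adjusted p = 0.241), and edgeR and DESeq2 called 0 members, with 1 at an unadjusted p under 0.05.

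The call of Pf4 with HbHp at 200 µM rested on 1 library. The other 7 libraries lay at 39.7 to 58.3 CPM, all above the control mean. Without the library at 84.1 CPM the value was 0.40 (adjusted p = 0.178), and Cbr2 (-1.08, adjusted p = 0.0438) was called in its place. Within E2 alone, with only 2 controls at 48 h, or within batch 3 alone, with 1 control of each prefix, none of the Pf4 calls at 48 h passed the test. Pf4 in the controls was at 42 ± 11.5 CPM at 24 h and at 30.2 ± 10.7 CPM at 48 h, a difference of -0.47 ± 0.15 that came near the threshold (adjusted p = 0.0516). The effect at 48 h was therefore set against that at 24 h. For HbHp at 200 µM the difference of effects in Pf4 was 0.64 ± 0.22 (adjusted p = 0.319) and for Hb at 400 µM it was 0.30 with a 95% interval of -0.10 to 0.71. Neither interaction called a member by edgeR or DESeq2 (0.0121% and 0% of genes called, 1 member each at an unadjusted p under 0.05).

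Ppbp again went with Pf4, and rose at 48 h by 2.10 with Hb at 400 µM (adjusted p = 0.00475), 2.14 with HbHp at 200 µM (0.00468), 3.54 ± 0.58 with HbHp at 400 µM (3.38e-06) and 1.68 with Hp at 400 µM (0.0199). Its level was low, 0.247 ± 0.185 CPM in the controls and 2.72 ± 3.02 CPM with HbHp at 400 µM. The summed level of the platelet list was 30.9 ± 2.23 CPM in the controls and 30.7 ± 5.77 CPM with HbHp at 400 µM, and its markers Itga2b, Gp1bb and Treml1 did not pass the test against control.

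With HbHp at 400 µM for 48 h, Cbr2 fell as well, 1 of 10 members lowered (4.56% of genes lowered). It was at 0.513, 0.657, 1.03, 0.276 and 0.751 CPM in the 5 libraries, against 1.61 and 2.23 CPM in the 2 E2 controls and a mean of 0.928 CPM in the E1 controls. The log2 fold change was -1.60 ± 0.40 (adjusted p = 0.00311), from counts of 7 to 32 reads per treated library, and it lost the call in E2 alone and without the prefix term. HbHp at 200 µM gave -0.95 (adjusted p = 0.0559). Against Hp at 400 µM, whose E2 libraries had a mean of 1.73 CPM, Cbr2 was at -1.16 ± 0.36 (adjusted p = 0.0728). In that comparison 1.44% of genes were called, edgeR and DESeq2 called 0 members, and 1 member had an unadjusted p under 0.05. For HbHp against Hb at 48 h both tools also called 0 members at 200 µM (4.98% called, 4 members at an unadjusted p under 0.05) and at 400 µM (4.28%, 6 members).

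Stab1 and the Ms4a6 genes with HbHp at 48 h depended on which libraries they were set against. In E2, Stab1 was at 676 and 842 CPM in the 2 controls and 625.3 ± 60.3 CPM with Hp (n = 6), but at 361 ± 101 CPM with HbHp at 200 µM (n = 8) and at 295, 198, 450.3, 480.3 and 410.4 CPM with HbHp at 400 µM. Ms4a6b was at 22.5 and 26.7 CPM in these controls and 19 to 24.6 CPM with Hp, but at 13.1 ± 3.19 CPM and at 11.8, 10.4, 11, 14.8 and 12.8 CPM with HbHp at 200 and 400 µM. Ms4a6c was at 41.3 and 55.5 CPM in the controls, 42.8 ± 4.53 CPM with Hp and 25.3 ± 4.89 and 25.8 ± 3.56 CPM with HbHp. The HbHp libraries thus lay below both E2 controls for these 3 genes. Mrc1 was at 48.9 and 53.8 CPM in them, 33.6 ± 4.49 CPM with HbHp at 200 µM and 35.1 ± 3.97 CPM at 400 µM, again below both. Over all libraries, with the prefix as a term, none of Stab1, Ms4a6b and Ms4a6c passed the test against control at 400 µM (Stab1 -0.78, adjusted p = 0.163, Ms4a6b -0.74, 0.175, and Ms4a6c -0.59, 0.284) or at 200 µM (Stab1 -0.80, 0.0934, Ms4a6b -0.62, 0.195, and Ms4a6c -0.62, 0.18). In a fit to E2 alone, whose 48 h controls are the 2 libraries above, Ms4a6b (-0.93, adjusted p = 0.0302, at 200 µM and -1.05, 0.0176, at 400 µM), Ms4a6c (-0.89, 0.0299, and -0.86, 0.0447) and Mrc1 (-0.63, 0.0179, and -0.57, 0.0409) fell at both doses. Stab1 fell at 200 µM (-1.17, adjusted p = 0.0417) and came near the threshold at 400 µM (-1.15, 0.058). Batch 3 alone had 1 control of E1 and 1 of E2 at 48 h, the latter also in the fit to E2. The 2 fits are thus not independent. Within batch 3 alone these 4 genes fell at both doses (-0.64 to -1.27, adjusted p between 0.0184 and 0.0463), and Cbr2 fell at 400 µM. In these fits to batch 3 against control, 359 and 602 of all genes were called at 200 and 400 µM. Against Hp at 400 µM, the fit to E2 gave lower levels with HbHp at 400 µM for Ms4a6b (-0.83, adjusted p = 0.00939), Ms4a6c (-0.74, 0.0153) and Mrc1 (-0.46, 0.0206), which the fit to all libraries did not call. In the fits to E2 against control, 646 and 766 of all genes were called at the 2 doses. Ms4a6d was at 145 CPM in the E2 controls, 149 ± 5.18 CPM with Hp and 126 ± 20.6 CPM with HbHp at 400 µM, and Ms4a7 at 37.5, 40.1 ± 2.17 and 43.1 ± 12.8 CPM. Against control, the fit to all libraries gave 0.10 for Ms4a6d and 0.52 (adjusted p = 0.15) for Ms4a7 with HbHp at 400 µM. The fit to E2 alone gave -0.23 (adjusted p = 0.634) and 0.14 (0.833), and that to batch 3 alone -0.38 (0.534) and 0.17 (0.798).

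**Figure D5:**
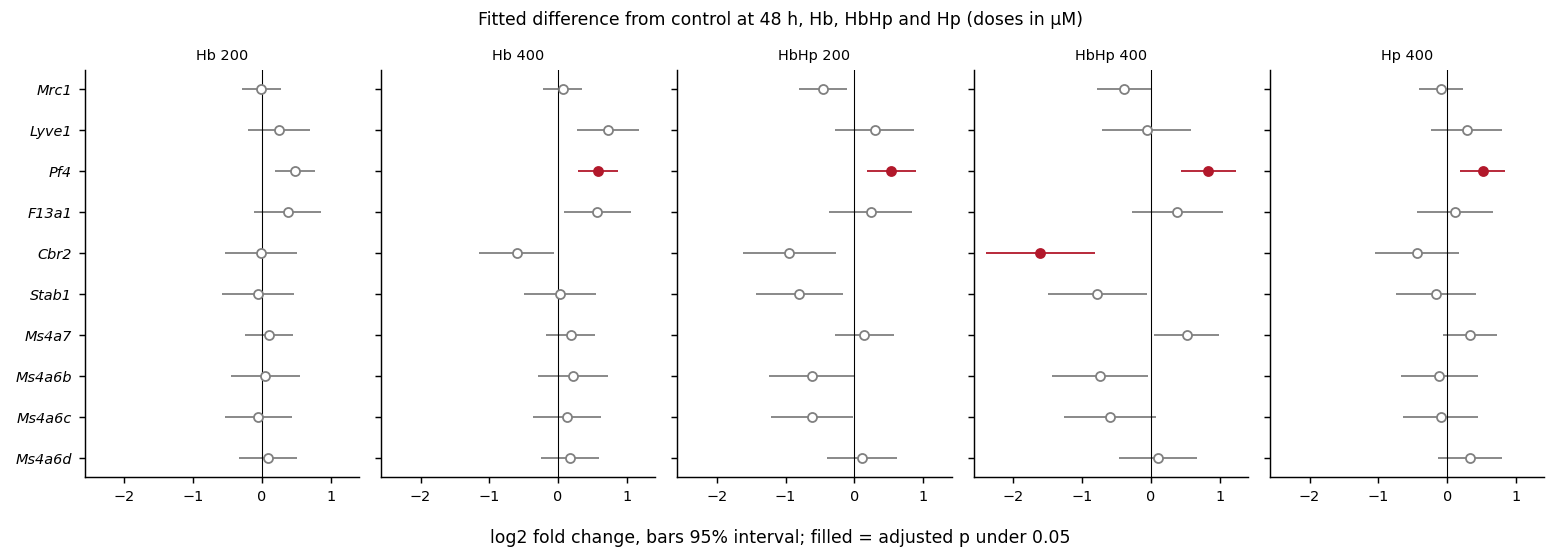
Log2 fold change with its 95% interval (horizontal axis) of each member against control at 48 h in batches 2 and 3 (1 panel per treatment), with filled points at an edgeR adjusted p under 0.05. Pf4 lies to the right of 0 with HbHp at 400 µM for 48 h (0.84) and Cbr2 to the left (-1.60), and the intervals of most other members include 0.

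Within E2, the same pair of Ms4a genes was low beside Ms4a6d with HbHp at 400 µM. Compared with Hp at 400 µM at 48 h (5 against 6 libraries, both of batch 3), Ms4a6b less Ms4a6d was lower by 0.57 ± 0.093 and Ms4a6c less Ms4a6d by 0.48 ± 0.068. Neither overlapped between the groups, and each had the smallest p that an exact permutation test of this size allows (0.00433, adjusted over 8 tests 0.0173). At 24 h (4 against 6 libraries) Ms4a6c less Ms4a6d was lower by 0.43 (exact permutation p = 0.00952, adjusted 0.0254, no overlap), whereas Ms4a6b less Ms4a6d, at -0.29, did not pass (adjusted p = 0.152). Ms4a7 less Ms4a6d did not pass at either time (0.32, adjusted p = 0.18, and 0.13, 0.216). Beside the 16 general macrophage genes, Ms4a6b (-0.58), Ms4a6c (-0.49), Stab1 (-0.60) and Pf4 (0.74) differed from Hp at 48 h without overlap (exact permutation p = 0.00433, adjusted over 30 tests 0.0325). With homeostatic microglia genes as the reference all 4 lost the call (-0.15, -0.06, -0.16 and 1.17, adjusted p between 0.0779 and 0.765).

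Among the marker lists with HbHp at 400 µM for 48 h, general macrophage genes had 0 of 16 called (median 0.09) and homeostatic microglia 1 of 13, P2ry12 at -0.93 (median -0.60). Of 15 further border macrophage markers tested, 3 rose, the lectin Clec4n by 2.80, the scavenger receptor Marco by 2.62 and the fatty acid receptor Cd36 by 1.03, and Igfbp4 fell by 0.69. Cd36 and Marco serve uptake by macrophages. The border macrophage members had a median of -0.23 and the Ms4a members of -0.24, against -0.0036 over all genes.

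The remaining members gave the following group means over the 12 groups of batches 2 and 3. Mrc1 lay between 32.1 CPM (HbHp at 400 µM, 24 h) and 39.5 CPM (Hp at 48 h), the narrowest range of the members relative to its level. F13a1 lay between 6.64 CPM (control, 48 h) and 12.7 CPM (HbHp at 400 µM, 48 h), where 1 library at 27.8 CPM stood apart from the other 4. Ms4a7 lay between 15.1 CPM (control, 24 h) and 43.1 CPM (HbHp at 400 µM, 48 h), and Ms4a6d between 65.9 CPM (control, 24 h) and 127 CPM (HbHp at 200 µM, 48 h). The higher means of both Ms4a genes belong to groups that were all of E2.

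Time in culture alone changed 1 member. Lyve1 in the controls was at 0.490 to 1.58 CPM (median 1.18, n = 10) at 24 h and at 0.219 to 0.893 CPM (median 0.602, n = 9) at 48 h. It fell by 1.02 ± 0.23 on the log2 scale (adjusted p = 0.00389), 1 of 10 members in a comparison with 4.50% of genes called (2.85% lowered). The ranges overlapped, and both prefixes had lower means at 48 h (0.571 against 1.10 CPM in E1 and 0.525 against 1.23 CPM in E2).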

How the data were processed

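For each library the deposited file holds raw counts, whole numbers of reads per gene that the authors did not normalize. The submitters' processing notes name featureCounts and GRCm39, and the study's methods name Lexogen SPLIT RNA extraction and Illumina TruSeq mRNA libraries. The aligner, the annotation release and whether counting used strand are not given in the sources used here.

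Groups followed the treatment tags of the labels. The titles of the hemeHpx libraries name haptoglobin, while their tags, library names and the study's methods give hemopexin, which was followed. Of the 21 libraries left without a group, 20 carry labels that disagree on the agent, and 1 control has no treatment in its tag. No label states which libraries come from the same mouse, and the codes in the library names are not explained. P-values therefore measure the spread between libraries, which may in part be technical. The letter in the library names went with Y-linked RNA, at least 137 CPM in the 94 libraries with M and at most 0.139 CPM in the 94 with W or F. No pair of libraries within a group was alike within sampling noise (724 pairs, smallest chi-square per gene 3.36).

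Counts were filtered with filterByExpr (smallest count 10, smallest total 15), scaled by TMM and tested with the quasi-likelihood F test of edgeR 4.0.16 in R 4.3.3, with Benjamini-Hochberg adjustment over all genes and a threshold of 0.05. The study's methods use DESeq2 with shrinkage and name no covariate. All 60 libraries of batch 1 (6 groups) were fitted together, and the assigned libraries of batches 2 and 3 (12 groups) were fitted with batch and the E1 or E2 prefix of the library name as terms. Errors of fold changes were derived from the F statistic. Levels are CPM on TMM-scaled library sizes, and log2 CPM uses a prior count of 2. Permutation tests used scipy with 100000 resamples, and exact enumeration for groups under 10 libraries. On simulated counts the batch 1 model recovered 72% of 100 genes changed by 0.5 and 88% of 100 changed by 1 (log2) for heme-albumin at 200 µM (15511 genes), and the other model 55.7% of 97 and 80.8% of 99 for HbHp at 200 µM and 24 h (16311 genes). The changed genes were drawn at random from all genes, and the simulated means held no batch or prefix effect. These rates are therefore not those of the members, whose errors are given with their values.

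The members and marker lists were chosen with earlier results of these data known. All members are named, together with up to 4 genes per list that passed the test in a comparison described, and the 8 genes whose residuals were most like each set of members in both sets of libraries. Ppbp and its fellow platelet markers were singled out after their values were seen, as were the measures of a member beside other genes. Positions are those of GRCm38 (GENCODE M21) and promoters those of RefSeq (GRCm38.p6), whose annotation may differ from the GRCm39 of the counts. Alternatives were DESeq2 1.42.0, RLE scaling, no filter, the letter or code of the library name as a term, fewer or no batch and prefix terms, batch 3 or E2 alone, and fits without single libraries.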

Additional observations from a re-analysis of the deposited data

Results flagged for a closer look

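Single libraries stood apart from their group in 17 of 160 groups of 4 to 10 libraries, where chance gives about 8. For the border macrophage members these were Lyve1 at 1.95 CPM with 50 µM heme-albumin (next library 1.09) and at 1.24 CPM with 200 µM (0.729), F13a1 at 26.1 CPM in a batch 1 control (17), at 17 CPM with 200 µM heme-albumin (12.6) and at 27.8 CPM with HbHp at 400 µM and 48 h (10.2), and Pf4 at 84.1 CPM with HbHp at 200 µM and 48 h (58.3). Cbr2 stood apart at 13.1 CPM with 50 µM heme-albumin (1.51), at 2.19 CPM with hemeHpx (1.5), at 5.38 CPM with Hb at 200 µM and 48 h (1.56) and at 1.87 CPM with Hb at 400 µM and 48 h (1.12). Stab1 was low at 226 CPM in 1 library with HbHp at 400 µM and 24 h, where the next was 312 CPM. Among the Ms4a members, Ms4a7 was at 36.3 CPM with Hb at 400 µM and 24 h (19.9), 33.3 CPM with HbHp at 400 µM and 24 h (23.1), 48.7 CPM with HbHp at 200 µM and 48 h (35.2) and 65.2 CPM with HbHp at 400 µM and 48 h (42.6). Ms4a6b was at 8.14 CPM with 200 µM heme-albumin (5.55) and Ms4a6d at 183 CPM with HbHp at 200 µM and 48 h (128). The Pf4, Ms4a7 and Ms4a6d values with HbHp at 200 µM belong to 1 library, and so do the F13a1 and Ms4a7 values with HbHp at 400 µM and 48 h. The causes were not tested.

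In the 10 unassigned libraries tagged HbHpx at 400 µM and 48 h, whose labels disagree on the agent, the medians of 3 members lay above every control library of the same time: Mrc1 at 61.7 CPM (highest control 56.3), Lyve1 at 0.953 CPM (0.900) and Pf4 at 91.2 CPM (52.1). The names of these libraries give Hpx in E1 and HbHpx in E2, and both kinds are pooled here. These values were scaled together with the other libraries and were not tested.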

How the results depend on the processing

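Of 33 pairs of a member and a comparison that passed the test, 26 kept their direction and side of the threshold under every setting that applied to them. None of the 33 reversed. All member calls of heme-albumin against control and of hemeHpx against heme-albumin were among the 26. The rest of the 26 were the 8 calls of E2 against E1, which is no treatment. Settings on batch, prefix, batch 3 or E2 did not apply to batch 1. The 7 that lost the call under some alternative were Pf4 in hemeHpx and in the 4 comparisons at 48 h, Cbr2 with HbHp at 400 µM and Lyve1 over time. They include every call of a treatment or of time in batches 2 and 3. None of the 180 group means moved by more than 1 SD under other scalings. The number of members called moved by over 1.5 times as follows. Without a filter it was 0 for hemeHpx (1 in the main fit; Pf4 adjusted p = 0.0551) and 0 for HbHp 200 µM at 48 h. In batch 3 alone, with 1 control of each prefix at 48 h, it was 4 and 5 for HbHp 200 and 400 µM at 48 h, with 359 and 602 of all genes called. It was 2 and 1 for HbHp 200 and 400 µM at 24 h, and 0 for Hb 400 µM, Hp at 48 h and control over time. In E2 alone it was 4 for HbHp 200 µM at 48 h (646 of all genes called), 1 and 3 for HbHp against Hp 400 µM at 24 and 48 h, 3 for control over time, and 0 for Hb 400 µM and Hp at 48 h. For the remaining counts the share of all genes called is not given here. With the batch term alone Hb 400 µM at 48 h had 0, and with neither term it had 0, HbHp 200 µM 3 and HbHp against Hb 400 µM 3 at 48 h. For HbHp 200 µM at 48 h DESeq2 gave 2 and the letter term 2, and for control over time DESeq2, RLE scaling and the letter term gave 2 each. Leaving out single libraries gave 0 to 1 members for HbHp 400 µM and for HbHp against Hp at 24 h (1 without HbHp replicate 4), 2 for HbHp 400 µM at 48 h, and 1 to 2 for control over time (2 without control 48 h replicate 9). Cause not tested for any of these.

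The code in the library names was tried as a replicate block. It gave 1 member for Hb 200 µM at 48 h (0 without) and 2 for control over time (1 without), and otherwise moved no count of members by over 1.5 times. Libraries of 1 code deviated together in part. In batch 1 the median correlation was 0.19 over 169 pairs of 1 code and -0.01 over 1331 other pairs, 55.6% of the former were over 0.1 (lowest -0.66), and 30 of 60 libraries were closest to their own code. In batches 2 and 3 the median was 0.061 against -0.005, with 42.6% over 0.1 (lowest -0.61) and 16 libraries closest to their own code. The labels do not say what the codes mean, and the permutation tests did not use them.

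Among values that did not pass the test, directions reversed, among others, for Ms4a6c with HbHp 200 µM at 24 h (0.026 with the batch term alone and 0.0039 with neither), F13a1 (-0.0016) and Ms4a7 (-0.20) with HbHp 200 µM at 48 h in batch 3, Ms4a7 there in E2 alone (-0.23), and F13a1 with HbHp 400 µM at 48 h without replicate 2 (-0.12, and up to 0.55 without another library). Ms4a6c beside macrophage genes in hemeHpx reversed from -0.16 to 0.053 with the microglia reference. The cause was not tested. Lyve1 and Cbr2, at about 1 CPM, set the limit of what this depth can show.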

Other observations

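The 20 unassigned libraries tagged HbHpx at 400 µM are given as values only. By library name 14 are Hpx of E1 and 6 are HbHpx of E2, pooled in these values. At 48 h (10 libraries) Pf4 ran from 52.6 to 110.3 CPM, Ms4a6b from 7.89 to 28.4 CPM (median 24.0), Ms4a6c from 13.8 to 49.3 CPM (median 39.7) and Stab1 from 162 to 625.1 CPM (median 522). At 24 h (10 libraries) Pf4 ran from 45.1 to 75.8 CPM (median 63.5) and Ms4a6b from 4.68 to 22.1 CPM (median 8.37). The unassigned control had Pf4 at 34.3, Stab1 at 550.4, Ms4a6b at 21.1 and Cbr2 at 21.4 CPM, the last above every assigned library of batches 2 and 3.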
